A study of Homo sapiens with 8 samples.

Results

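The chaperonin and heat shock chaperone genes of a Cas13d dropout screen comprised 469 guide RNAs on 70 exon-exon junctions of 15 genes, out of 45866 targeting guides on 6735 junctions of 1250 genes. They were chosen by gene symbol from the families of the TRiC chaperonin, prefoldin, tubulin folding cofactors, the HSP70 and HSP90 families, J-domain proteins and related co-chaperones, without the guides that the deposited table types as non-essential controls. That exclusion left out 8 guides of 2 control genes whose symbols fit the families, DNAJC19 and HSPBP1. No tubulin folding cofactor and no HSP90 family gene was among the genes found. The 15 genes were 6 TRiC subunits (TCP1, CCT2, CCT4, CCT5, CCT6A and CCT8), 3 prefoldin subunits (PFDN2, PFDN5 and PFDN6), 2 mitochondrial chaperones (HSPD1 and DNAJA3), 2 HSP70 family members (HSPA5 and HSPA8) and 2 further J-domain proteins (DNAJC11 and DNAJC9). The deposited table types 12 of them as essential under Cas13 and 3 (CCT5, PFDN6 and DNAJC9) as not essential. How that type was set is not given in the sources used here, so it may rest on the same fold changes and is given only as a description.

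The screen was run in A375, an established human melanoma cell line, in a monoclonal line with doxycycline-inducible (TetO) RfxCas13d, a CRISPR nuclease that cuts RNA. All values therefore come from 1 clone. Of the 8 libraries of guide cassettes amplified from genomic DNA, 2 were of untreated cells at Day 0, and 2 each were of cells at Day 7, Day 14 and Day 21 of treatment with 1 ug/ml doxycycline. Each value was a log2 fold change of a guide's abundance against Day 0 of the same replicate, so that a value below 0 is a guide that became rarer in the pool. The labels number the replicates 1 and 2 and do not say how far they were kept apart. The p-values therefore measure only the spread between these 2 replicates, moderated over all genes, junctions or guides. In the test of junctions against 0, that spread was common to all junctions.

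Chaperones bind unfolded proteins and keep them from aggregating while they reach their folded state. TRiC is a double-ring chamber of related subunits in the cytosol that closes around a client with the help of ATP, and actin and tubulin are its best known clients. Prefoldin hands such clients to TRiC, whereas HSP70 chaperones bind short exposed stretches in cycles of ATP hydrolysis that J-domain proteins start. Dividing cells rely on them for new proteins, the cytoskeleton and the spindle.

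Read depth is not given in the sources used here, but once a constant of its library was taken off, each fold change was the log2 of one whole number over another. From these ratios an implied Day 0 number per guide could be read, which is a lower bound on its count plus any pseudocount. Its median over the 469 guides was 93 in replicate 1 and 123 in replicate 2, against 92 and 125 over all targeting guides. At Day 21, 25 of the chaperone guides (5.33%) in replicate 1 and 29 (6.18%) in replicate 2 stood at an implied number of 1. The shares were 3.09% and 3.18% of all targeting guides, and 4.34% and 4.67% of the guides of genes typed essential. As the implied number is a lower bound, the true number of such a guide may have been larger. Where it was 1, no further loss could be measured.

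At gene level, where the value of a gene is the mean over its guides, 8 of the 14 chaperone genes with at least 3 guides were lower at Day 21 at an adjusted p under 0.05, and none was higher. The 8 were TCP1, CCT8, CCT4, CCT2, HSPD1, HSPA8, HSPA5 and PFDN2. Of all 1223 genes tested, 20.8% were lower at Day 21. Because most of the chaperone genes are typed as essential, the nearer comparison is with that class: 8 of the 12 chaperone genes typed essential were lower (66.7%), against 211 of all 479 genes of that type (44.1%), a difference that was not tested. The median of the 14 gene means was −0.85 in replicate 1 and −0.92 in replicate 2, or −0.88 ± 0.051 (SD, n = 2, as for every ± below). Over all genes tested it was −0.32 ± 0.063, over all genes typed essential −0.73 ± 0.069, and over the non-essential control genes −0.04 ± 0.053. Over the 12 chaperone genes typed essential the median was −1.12 ± 0.14, and its difference from the whole type was not tested. Both replicates were below 0 in 13 of the 14 chaperone genes (92.9%), above the 61.3% of all genes tested. Among genes typed essential the shares were close, 11 of the 12 chaperone genes (91.7%) and 93.3% of all genes. The calls depended on how the guides were summarised: with the median over guides in place of the mean, CCT8 alone passed at Day 21. With every library centred on the median of all its guides, TCP1, CCT8 and HSPD1 passed.

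Day 7 showed little. HSPD1 and PFDN2 were lower at Day 7, 2 of the 14 genes tested, where 3.92% of all genes were lower. Among genes typed essential, 16.7% of the chaperone genes and 8.77% of all genes were lower. Both calls were lost under 7 of the 9 other settings tried. At Day 14 the same 8 genes were lower as at Day 21, where 22.1% of all genes were. Among genes typed essential, the Day 14 shares were 66.7% of the chaperone genes and 45.3% of all genes. The median of the 14 gene means was −0.18 ± 0.099 at Day 7 and −0.78 ± 0.048 at Day 14. Within replicates, 7 genes fell from Day 7 to Day 14, namely the 8 without HSPA5, with a background of 21.1% of all genes. From Day 7 to Day 21 the fall was called for 6 genes, the same ones without PFDN2, with a background of 23.5%. Among genes typed essential, 58.3% of the chaperone genes fell from Day 7 to Day 14, against 43.0% of all genes. From Day 7 to Day 21 these shares were 50% and 45.9%. None of these differences in share was tested. From Day 14 to Day 21 the limma count of chaperone genes past the threshold was 0, here and under the 6 other settings run, 2 had an unadjusted p under 0.05, and 1.06% of all genes were lower. Comparisons that share the Day 7 or Day 0 libraries are not independent of each other.

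TRiC held the lowest genes of the set. TCP1, the alpha subunit of the ring, was represented by a single junction (chr6:159780566-159780934, hg38 here and below) with 7 guides. Its gene mean was −0.70 and −0.33 at Day 7, −2.50 and −3.48 at Day 14, and −2.46 and −3.0 at Day 21, in replicates 1 and 2. All 6 libraries were below 0, the later days lay far under Day 7, and Day 14 and Day 21 overlapped. At Day 21 the mean was −2.73 ± 0.38 (SE 0.20, adjusted p = 0.0108), a 6.64-fold lower abundance and the 41st lowest of the 1223 genes. Every guide of TCP1 was below 0 in both replicates at Day 21, and 5 of the 7 were called lower. The lowest guide stood at −5.29 and −3.75, and the highest at −0.25 and −0.82.

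CCT8, the theta subunit, had the most guides called lower of the 15 genes. Its mean was −0.18 and −0.73 at Day 7, −1.80 and −2.55 at Day 14, and −2.49 and −2.74 at Day 21. Replicate 2 was lower on each day, and Day 14 and Day 21 overlapped. The Day 21 mean was −2.61 ± 0.18 (SE 0.16, adjusted p = 0.0107), 6.12-fold lower than at Day 0. Of its 62 guides, 50 were below 0 in both replicates and 30 were called lower. CCT8 was also the gene that kept its call under every setting tried at Day 21.

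CCT4 and CCT2, the delta and beta subunits, lost less and lay close together. CCT4 stood at −0.30 and −0.53 at Day 7, −0.97 and −1.04 at Day 14, and −1.18 and −1.30 at Day 21. For CCT2 the values were −0.09 and −0.40, then −1.03 and −0.98, then −1.28 and −1.13. In both genes the 3 days did not overlap and each day was lower than the one before. Their Day 21 means of −1.24 ± 0.083 (adjusted p = 0.0189) and −1.21 ± 0.11 (adjusted p = 0.0205) differed by less than the spread between replicates. Both calls were lost with all-guide centring and with the median over guides, which gave −0.65 for CCT4 and −0.73 for CCT2. The guides of each gene were split: 13 of 55 guides of CCT4 and 15 of 62 of CCT2 were called lower, while 9 and 13 were above 0 in both replicates.

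CCT5 and CCT6A, the epsilon and zeta subunits, did not pass at gene level when each day was fitted alone. CCT5, the highest of the TRiC genes, had means of −0.09 and −0.14 at Day 7, −0.39 and −0.29 at Day 14, and −0.21 and −0.28 at Day 21. All 6 values were below 0 and none was below −0.40. The Day 21 mean of −0.25 ± 0.047 (adjusted p = 0.312) turned to 0.06 when libraries were centred on all guides and to 0.27 with the median over guides. At Day 14 CCT5 was called lower with all days in a single fit, with adjusted p = 0.0354 without and 0.0335 with the replicate block. CCT6A stood at 0.00 and −0.13 at Day 7, −0.42 and −0.29 at Day 14, and −0.52 and −0.25 at Day 21, with the later days below Day 7 and overlapping each other. The Day 21 mean was −0.38 ± 0.19 (adjusted p = 0.193). Fitting all days together called it lower at Day 21, with adjusted p = 0.0399 without and 0.0301 with the replicate block, and at Day 14 with the block (adjusted p = 0.0459). Over the 6 TRiC genes the median of the gene means was −1.23 in replicate 1 and −1.22 in replicate 2 at Day 21.

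Of the prefoldin subunits, PFDN2 was the lowest and the only one called. Its single junction, chr1:161102171-161102286, carried 8 guides. PFDN2 stood at −0.50 and −1.13 at Day 7, −1.15 and −1.71 at Day 14, and −0.87 and −1.49 at Day 21. Replicate 2 was lower throughout, and Day 7 and Day 21 overlapped. The Day 21 mean was −1.18 ± 0.44 (SE 0.22, adjusted p = 0.0455). It rested on few guides. Guides 2 and 3 stood at −4.11 and −6.93 and at −4.33 and −7.43 in the replicates at Day 21, and both were called lower. Guide 1 was split, at 0.26 in replicate 1 and −4.15 in replicate 2, and guide 5 at −1.41 and 0.11. Guides 4, 6 and 7 were above 0 in both replicates and guide 8 stood at −0.12 and 2.32. Guide 3 was already at −3.11 and −4.99 at Day 7. With the median over guides PFDN2 was at 0.20 and not called, and 4 further settings ended the Day 21 call with adjusted p from 0.0515 to 0.142.

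PFDN5 and PFDN6 did not pass. PFDN5, with 8 guides on chr12:53298150-53299268, stood at 0.16 and −0.07 at Day 7, −0.45 and −0.33 at Day 14, and −0.63 and −0.29 at Day 21 (mean −0.46 ± 0.24, adjusted p = 0.154). The later days were below Day 7, and none of its guides was called. PFDN6, the highest of the 3, stood at 0.02 and 0.00 at Day 7, at −0.20 and −0.13 at Day 14, and at −0.36 in both replicates at Day 21. The adjusted p of its Day 21 mean, −0.36 ± 0.00065, was 0.175, since the moderated spread replaces the small SD of 2 values. Both genes passed in the fits that shared a spread over the days, with adjusted p = 0.0344 and 0.0216 without a block and 0.0254 and 0.0205 with the replicate block. None of the 25 guides of PFDN6 was called, and the lowest stood at −1.52 and −1.34. The deposited table lists 2 junctions of PFDN6 that end at the same base and start 8 bases apart (chr6:33289620-33289769 and chr6:33289628-33289769), both in the category it names fully_unique. Their means at Day 21 were −0.98 and −0.26 for the first and 0.38 and −0.26 for the second. They thus stood apart in replicate 1 and level in replicate 2, and were not tested against each other.

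The mitochondrial chaperones stood far apart. HSPD1, the chaperonin of the mitochondrial matrix, had means of −0.48 and −1.33 at Day 7, −1.49 and −1.98 at Day 14, and −2.32 and −2.31 at Day 21. The days did not overlap, and the replicates, which differed at Day 7, came together at Day 21. At Day 21 the mean was −2.31 ± 0.0046 (SE 0.14, adjusted p = 0.0107), a 4.97-fold lower abundance. Of its 24 guides 11 were called lower. DNAJA3, a J-domain partner of the mitochondrial HSP70, had Day 7 means of −0.02 and −0.01, Day 14 means of −0.41 and 0.18, and Day 21 means of −0.32 and 0.14. Replicate 1 was below 0 and replicate 2 above 0 on the later days, which made DNAJA3 the gene of the 14 without both replicates below 0. At Day 21 its mean was −0.09 ± 0.33 (adjusted p = 0.779), and 0.22 with libraries centred on all guides. A single guide of its 32 was called lower, at −4.62 and −1.94, on chr16:4448848-4450399.

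Both HSP70 family members were lower. HSPA8, the constitutive HSP70 of the cytosol, had 8 guides on a single junction (chr11:123058830-123059058). Its means were −0.13 and −0.51 at Day 7, −0.92 and −1.76 at Day 14, and −1.41 and −1.36 at Day 21. The Day 21 values lay between those of Day 14. The mean was −1.38 ± 0.038 (SE 0.14, adjusted p = 0.0156), but the replicates agreed less guide by guide: the lowest guide stood at −2.91 and −7.69, and guide 6 at −3.97 and −0.43. Only 1 of the 8 guides was called lower. Fewer than 8 had an implied Day 0 number of at least 50. Over those guides alone the mean moved to −1.17 at Day 7, −2.68 at Day 14 and −2.49 at Day 21. All-guide centring (adjusted p = 0.0511) and the median over guides (adjusted p = 0.201) ended the Day 21 call. HSPA5, the HSP70 of the endoplasmic reticulum lumen, was the highest of the called genes. It stood at −0.27 and −0.17 at Day 7, −0.71 and −0.51 at Day 14, and −0.83 and −0.71 at Day 21. Replicate 1 was lower on each day, and Day 14 and Day 21 met at −0.71. The Day 21 mean was −0.77 ± 0.086 (adjusted p = 0.0468), close to the threshold, and 5 of the other settings ended that call with adjusted p from 0.0512 to 0.172.

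The further J-domain proteins had no call at gene level. DNAJC11, which takes part in shaping the mitochondrial inner membrane, had the most guides of the set, 85 on 11 junctions. Its means were 0.10 and 0.01 at Day 7, −0.10 and −0.11 at Day 14, and −0.30 and −0.13 at Day 21. The Day 21 mean of −0.22 ± 0.11 did not pass (adjusted p = 0.390) and was 0.09 with libraries centred on all guides. DNAJC9, a co-chaperone of histones, had a single guide, on chr10:73243929-73245921, and was not tested at gene level. That guide stood at 1.07 and 0.32 at Day 21 and was not called.

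Within genes, the junctions differed far more than the gene means show. Of the 70 junctions, 65 had at least 3 guides. Of these, 26 from 10 genes were lower at Day 21 and none was higher, while 25.3% of all 6401 junctions tested were lower. That share is over genes of every type, whereas 12 of the 15 chaperone genes are typed essential. The 26 calls became 18 with the median over guides, and 21 with all-guide centring, of which 1 was higher. The junction fit against 0 used a common spread for all junctions, an SE of 0.358 for each. A junction with replicates far apart thus had the same SE as one with replicates close together. The 26 junctions held 182 guides and 77 of the 86 guides that were called lower. Junction and guide calls rest on the same Day 21 values, so this overlap follows largely from how the junctions were picked. Each junction was also tested against the mean of the guides on the other junctions of its gene, within each replicate. Of 61 junctions of 10 genes so tested, 12 were lower than the others of their gene and 10 were higher, in 7 genes. The tests within a gene are not independent, since a low junction also lowers the mean that its other junctions are set against. The background was 12.0% lower and 9.92% higher among 6111 junctions. The median SD of junction means within a gene was 1.19 over the 10 chaperone genes, against 0.764 over the 420 genes typed essential and 0.501 over all 928 genes with enough junctions. That difference was not tested.

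In CCT8, 8 of 9 tested junctions were lower, and the last junction was the lowest of all 65 tested chaperone junctions. Its 7 guides, on chr21:29056552-29060540, averaged −1.01 and −2.02 at Day 7, −3.82 and −6.35 at Day 14, and −5.63 and −5.67 at Day 21. Its difference from the other junctions of CCT8 was −3.43 on the log2 scale (SE 0.361, adjusted p = 2.58e-09). All 7 guides were called lower, from −3.87 to −7.67. The lowest of them, guide 5, stood at −7.08 and −8.27, which corresponds to implied numbers of 141 and 281 at Day 0 and of 1 in each replicate at Day 21. The junction just upstream, chr21:29060660-29061252, averaged −0.28 and −1.20 at Day 21 and was the CCT8 junction that was not called, 2.15 above the others (adjusted p = 2.05e-05). The first junction, chr21:29067071-29067555, was called at −0.98 ± 0.47 and was also higher than the others. Its call against 0 was lost with all-guide centring and with the median over guides, which gave −0.56. Between these ends, 6 tested junctions had means from −1.88 to −4.02. Of these, chr21:29066777-29066890 averaged −3.40 and −4.63 with all of its 3 guides called, and chr21:29061417-29061495 averaged −3.0 and −4.52 with 6 of 8 called. These were lower than the other CCT8 junctions as well, with differences of −1.48 (adjusted p = 0.00283) and −1.31 (adjusted p = 0.00956).

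CCT4 too had neighbouring junctions far apart. Its 8 guides on chr2:61872588-61873001 averaged −1.17 and −1.76 at Day 7, −2.96 and −4.13 at Day 14, and −3.85 and −4.71 at Day 21, a difference from the other junctions of −3.55 (adjusted p = 1.6e-09). On the next and last junction, chr2:61872316-61872457, 8 guides averaged −0.20 and 0.11 at Day 7, −0.01 and 0.21 at Day 14, and 0.53 and 0.39 at Day 21. The guides of these neighbours did not overlap: on the first junction they ranged from −7.24 to −0.95 and 6 of 8 were called, and on the second they ranged from −0.21 to 1.29 and none was called. The lowest guide, guide 3, stood at −6.69 and −7.80, from an implied 108 and 203 to 1. Upstream, chr2:61877514-61878868 was called at −0.84 and −2.45 and the first junction, chr2:61879011-61880285, at −1.39 and −1.33, and neither differed from the other junctions beyond the threshold (adjusted p = 0.448 and 0.854). With the median over guides neither was called, the difference of the last junction fell to 1.18 (adjusted p = 0.0707), and chr2:61877514-61878868 stood at −0.66. In all, 4 of 7 tested CCT4 junctions were lower. The remaining one, chr2:61873112-61873196, averaged −1.76 and −0.22 (adjusted p = 0.0235), and all-guide centring ended its call (adjusted p = 0.209). Another, chr2:61877052-61877392, was 1.03 above the others (adjusted p = 0.0401), which was lost with the median over guides (adjusted p = 0.352).

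CCT2 had 4 of its 8 tested junctions called lower, and 2 neighbours among them were also lower than the others. Guides on chr12:69593613-69597155 averaged −3.47 and −3.69 at Day 21 (difference from the others −2.73, adjusted p = 2.99e-07), and those on chr12:69597275-69597637 averaged −2.41 and −2.80 (difference −1.61, adjusted p = 0.000964). On each, 5 of 8 guides were called lower. The lowest guide of CCT2, on the first of these junctions, stood at −5.69 and −6.62. The further called junctions were chr12:69586344-69586752, at −1.64 and −0.82 (adjusted p = 0.00311), and chr12:69593103-69593509, at −1.33 and −0.61 (adjusted p = 0.0274). Both of these calls were lost with all-guide centring and with the median over guides, which moved the first to −0.51. By contrast, chr12:69587616-69587929 averaged 0.17 and −0.28, 1.32 above the others (adjusted p = 0.00685, and 0.118 with the median over guides), and none of its guides was below 0 in both replicates. Its neighbour chr12:69588006-69588149 averaged −0.63 and 0.37 and was also above the others, by 1.23 (adjusted p = 0.0126).

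In CCT5 the gene mean and the mean of a single junction stood far apart. Its 4 junctions are all in the category named partial_unique, and the gene is typed as not essential. Guides on chr5:10256153-10258110 averaged −0.73 and −1.25 at Day 7, −1.86 and −2.48 at Day 14, and −1.68 and −2.18 at Day 21 (mean −1.93, adjusted p = 6.38e-07). Its difference from the other junctions was −2.27 (adjusted p = 7.66e-06). The loss sat in guides 1, 2 and 3, at −6.73 and −6.05, at −6.81 and −6.85, and at −3.53 and −7.49. The other 5 guides on that junction ranged from −0.32 to 1.53. With the median over guides this junction stood at −0.09 and was not called, and its difference from the others was −0.58 (adjusted p = 0.455). The 3 other junctions of CCT5 had means of 0.56, −0.21 and 0.68, none of them called against 0. The first and the last of these were higher than the others of the gene. Their differences were 1.05 (adjusted p = 0.0332) and 1.26 (adjusted p = 0.0094). With the median over guides neither difference passed (adjusted p = 0.744 and 0.342).

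In HSPD1, 2 of the 3 junctions were called lower, and both calls were kept with the median over guides. Guides on chr2:197489247-197490196 averaged −4.47 and −3.63 at Day 21, a difference from the others of −2.60 (adjusted p = 1.33e-06), with 6 of 8 called. Those on chr2:197488491-197489001 averaged −2.22 and −3.96, with 5 of 8 called. Their difference from the others was −1.16 (adjusted p = 0.0408), from 0.14 in replicate 1 and −2.47 in replicate 2. With robust moderation that difference did not pass (adjusted p = 0.249). The most upstream tested junction, chr2:197497392-197498674, averaged −0.26 and 0.66, with no guide called, and lay 3.77 above the others (adjusted p = 8.92e-10). The lowest guide of HSPD1, guide 2 of the first of these junctions, stood at −6.48 and −7.40. Part of this loss was early: guide 3 of that junction stood at −3.06 and −7.49 at Day 7 already, and guide 5 of chr2:197488491-197489001 at −2.30 and −7.85.

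In HSPA5 the call rested on 2 of 5 junctions with 3 guides each. They were chr9:125239331-125239420, at −2.89 and −2.35, and chr9:125240309-125240675, at −2.48 and −0.96. Both were lower than the other junctions, with differences of −2.10 (adjusted p = 2.47e-05) and −1.08 (adjusted p = 0.0384). The lowest guide of HSPA5 stood at −5.27 and −7.61, whereas another guide of the same junction stood at 0.75 and 0.80. The highest junction, chr9:125240907-125241004, was at 1.03 and −0.43, above the others by 1.22 (adjusted p = 0.0201). With the median over guides none of these 3 differences passed (adjusted p = 0.139, 0.177 and 0.179).

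DNAJC11, without a call at gene level, had its first 2 junctions of 11 called lower. The first, chr1:6681037-6701728, averaged −1.27 and −1.61 at Day 21 (mean −1.44, adjusted p = 0.000356) and differed from the others by −1.35 (adjusted p = 0.00541). With the median over guides it stood at −0.91 (adjusted p = 0.105), with a difference of −0.72 (adjusted p = 0.361), so both calls were lost. Its lowest guide stood at −7.27 and −3.44. The second, chr1:6678467-6680907, averaged −1.65 and −0.34 (adjusted p = 0.0234) and had no guide called. Its call was lost with all-guide centring (−0.69, adjusted p = 0.196) and kept with the median over guides (−1.24, adjusted p = 0.0154). The other 9 had means from −0.48 to 0.39, the highest on chr1:6651602-6652828. No tested junction of CCT6A, DNAJA3, PFDN5 or PFDN6 was called. CCT6A had a further junction with a single guide, chr7:56062755-56063012, at −3.64 and −7.78. That guide was called lower, and the junction was too small to test.

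At the level of single guides, 86 of the 469 (18.3%) were lower at Day 21 and none was higher, where 11.1% of all 46829 guides and 16.0% of the guides of genes typed essential were lower. Among TRiC guides 67 of 253 were called (26.5%), among the mitochondrial chaperones 12 of 56 (21.4%), among the HSP70 members 3 of 33, among prefoldin 2 of 41 and among the J-domain proteins 2 of 86. Guides on the same junction share their target and are not independent. At least a 2-fold loss in both replicates was seen for 117 guides (24.9%), compared with 23.1% of the guides of all genes typed essential and 17.4% of all targeting guides. The opposite, a 2-fold gain in both, was seen for 14 of the 469 guides. It was seen for 1257 of all 45866 targeting guides and for 654 of the 27805 guides of genes typed essential. Loss was uneven within junctions too, with a median SD over the guides of a junction of 1.15, against 1.13 for genes typed essential. Across the 469 guides the 2 replicates correlated with r = 0.518 at Day 7, 0.689 at Day 14 and 0.640 at Day 21, a description over guides that share targets. For all targeting guides the values were 0.383, 0.587 and 0.543.

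The deposited table gives each of these genes a GeCKO gene score, named like a pooled Cas9 knockout library and made in a way that is not given in the sources used here. Over the 14 genes the scores ran from −1.83 (HSPA8) to −0.853 (DNAJC11), and they correlated with the Day 21 means at r = 0.479 and rho = 0.582. Over all 829 scored genes tested, r was 0.197 and rho 0.151. Both are descriptions across genes that share the same libraries. HSPD1, with a score of −0.941 near the weak end, was the third lowest of the chaperone genes in the screen.

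Genes that work with these chaperones were covered thinly. Of 47 listed partners, 10 had guides and were tested, and 2 of them were lower at Day 21 and none higher, a share close to the 20.8% of all genes. These were STIP1, which links HSP70 to HSP90, at −1.30 and −1.70 (mean −1.50 ± 0.28, adjusted p = 0.0192), and VCP, an unfolding ATPase, at −1.54 and −1.45 (mean −1.50 ± 0.067, adjusted p = 0.0145). The median of the 10 was −0.50 ± 0.051. Of 33 listed chaperonin clients 14 were tested, and 2 were lower and none higher, a smaller share than the 20.8% of all genes, with the difference not tested. They were ACTR2, part of the complex that nucleates branched actin, at −0.91 and −0.82 (adjusted p = 0.0361), and ACTR10, a dynactin subunit, at −1.14 and −1.15 (adjusted p = 0.0206). The median of the 14 clients was −0.49 ± 0.050, beside −0.32 ± 0.063 over all genes tested and −0.73 ± 0.069 over all genes typed essential. Both lists mix genes typed essential and not essential, and the clients include STAT3, a non-essential control gene. The tubulin genes TUBB and TUBB4B each had a mean of −0.73 and did not pass.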

How the data were processed

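Guide abundance was measured by sequencing guide cassettes in 8 libraries. The submitters' processing notes name cutadapt 3.5, Bowtie 1.1.2 and hg38. The authors deposited 1 table, per the file headers, of log2 fold changes for each guide in each replicate of each day, with the GeCKO gene score, a deposited score per gene. Any pseudocount, scaling or filter is not given in the sources used here. Groups and replicate numbers come from the labels.

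All tests used limma 3.58.1 in R 4.3.3 on the deposited log2 values: the mean of the 2 replicates of a day was tested against 0, two-sided, with empirical Bayes moderation. Benjamini-Hochberg adjustment ran over all 1223 genes and 6401 junctions with at least 3 guides, over 6111 junctions set against the others of their gene, and over all 46829 guides. Called means an adjusted p under 0.05. With 2 replicates an exact sign-flip test cannot go below 0.5, so medians carry no test. The same scripts were tested on simulated data with 200 planted changes at each level. For genes 181 were recovered with 9 false calls, and for junctions 162 with 7. For junctions against the others 157 were recovered with 10 false calls, but for guides only 66 with 14. A guide that was not called may therefore still have changed. Implied Day 0 numbers were the smallest whole numbers that fit all 3 days of a guide: 100% of values in each library were such ratios (relative tolerance 1e-09, denominators up to 2000), against at most 0.327% with the library constant moved. All 70 junctions lay within the bounds that GRCh38.p14 gives for their named gene.

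Same-numbered libraries were paired by the labels and by the shared Day 0 library. Their deviations from the day means correlated across genes at 0.476 to 0.727 between days. The rule for genes named in full was those called at Day 21 and the lowest and highest of each role, and CCT6A and PFDN5 were given as well, so that all 15 are described. Junctions named are the lowest and highest of genes with a call, plus others chosen after their values were seen. The alternatives were other centrings, the median over guides, other guide minimums, an implied Day 0 number of at least 50, robust moderation, and all days in a single fit with and without the replicate block. The genes and lists were chosen with earlier results of these data known. No guide sequence is printed, as none was used here.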

Additional observations from a re-analysis of the deposited data

Results flagged for a closer look

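The results singled out are those chaperone genes whose loss against Day 0 differed between days, by a limma test of the difference within replicates. From Day 7 to Day 14 the log2 difference was −2.47 ± 0.95 (SD, n = 2) for TCP1, −1.72 ± 0.15 for CCT8, −1.02 ± 0.32 for HSPA8, −0.83 ± 0.26 for HSPD1, −0.76 ± 0.25 for CCT2, −0.61 ± 0.054 for PFDN2 and −0.58 ± 0.11 for CCT4. Adjusted p ran from 0.000204 for CCT8 to 0.0314 for CCT4. From Day 7 to Day 21 it was −2.21 ± 0.64 for TCP1, −2.16 ± 0.21 for CCT8, −1.41 ± 0.60 for HSPD1, −1.06 ± 0.31 for HSPA8, −0.96 ± 0.32 for CCT2 and −0.83 ± 0.076 for CCT4. Adjusted p ran from 2.28e-05 for CCT8 to 0.0132 for CCT4. Both replicates showed the direction in each of these genes, and both sets of differences share the Day 7 libraries.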

How the results depend on the processing

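The count of chaperone genes lower at Day 21 (8) became 3 with libraries centred on all guides and 1 with the median over guides, and lay between 6 and 11 elsewhere. The Day 14 count (8) became 2 with the median. The Day 7 count (2) became 0 with centring on non-targeting guides, centring on all guides, the median, at least 1 guide, an implied Day 0 number of at least 50, robust moderation, and all days in a single fit. The 7 falls from Day 7 to Day 14 became 1 with all-guide centring and 2 with the median, and the 6 from Day 7 to Day 21 became 2 and 1. Junctions differing from the others of their gene (22) became 12 with the median. With the replicate block the counts were 11 at Day 21, 10 at Day 14, 2 at Day 7, 6, 0 and 7 between days, and the guides called rose from 86 to 138, of which 19 were higher. The median of the 14 genes (−0.88) was −0.58 with all-guide centring, −0.53 with the median, −0.77 with at least 1 guide, and −0.92 to −0.85 with a replicate left out. Signs turned at Day 7 for CCT5 (0.18), CCT6A (0.027), DNAJA3 (0.053) and PFDN6 (−0.037) with the median, for DNAJA3 (0.026) with all-guide centring, and for PFDN6 with non-targeting centring (−0.0005) and the Day 0 minimum (−0.023). They turned at Day 14 for CCT5 (0.31) with the median and for DNAJA3 (0.12), DNAJC11 (0.13) and PFDN6 (0.067) with all-guide centring. At Day 21 they turned for CCT5 (0.060), DNAJA3 (0.22) and DNAJC11 (0.092) with all-guide centring, and for CCT5 (0.27) and PFDN2 and its junction (0.20) with the median. Of these, PFDN2 and its junction had been called. The cause was not tested. With 2 replicates and read depth not given, small gene-level differences could not be detected. Guides at an implied number of 1 may give only a bound on their loss.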
